A study of Mus musculus with 4 samples.

Results

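Serine proteases held at the cell surface, and the transmembrane inhibitors that restrain them, were compared between 2D- and 3D-cultured AML12 cells. The set is 10 named genes of the 31828 listed, 8 proteases (Prss27, Prss22, Prss8, Prss23, Tmprss2, Tmprss6, St14 and Hpn) and 2 inhibitors (Spint1 and Spint2), and each was found once by its symbol. The genes were chosen with their 3D against 2D values already known, so those values are given as a description and with no test. AML12 is an immortalised mouse hepatocyte line, a single line that was established from mice carrying a transgene for human transforming growth factor alpha. Cells grew either as a flat layer in dishes (2D, 2 libraries) or inside Matrigel, a gel of basement membrane proteins (3D, 2 libraries). All 4 libraries came from cells given 1 mM hydroxyurea, which blocks DNA replication, for 24 h in 2D and 36 h in 3D. The effect of the matrix and that of the longer treatment cannot be told apart. The study asked how growth in 3D bears on the folding of chromosomes, and compared RNA levels between the cultures in relation to it.

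Trypsin-like serine proteases are made as inactive precursors, and cutting at a single site turns them on. Type II transmembrane enzymes (St14, Hpn, Tmprss2, Tmprss6) carry a membrane anchor near the amino end, prostasin (Prss8) is tethered by a lipid anchor, and Spint1 and Spint2 are membrane proteins with Kunitz domains that plug the active site of matriptase, hepsin and the activator of hepatocyte growth factor. In epithelia this system controls barrier function, sodium channels and growth factor activation, and in the liver hepsin and matriptase-2 are characteristic hepatocyte enzymes. Prss22 and Prss23 are known as secreted enzymes, so the name membrane-anchored describes the set only in part.

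Abundance was measured as TPM, a transcript share that corrects for transcript length and is scaled to a fixed total in each library. Levels of different genes can therefore be compared, while sequencing depth is unknown. Each library had 13891 to 14256 genes at 1 TPM or more, and mitochondrial genes took 5.37% to 6.78% of the TPM. Nothing in the labels says whether the 2 libraries of a culture came from separate cultures, so their spread may be technical. Hepatocyte identity was checked on markers. Trf and Hnf4a, the most abundant of the 6 hepatocyte markers, stood at 18.4 to 19.3 and 56.7 to 57.6 TPM in 2D and at 227 to 231 and 156 to 164 TPM in 3D. Alb was at 0.819 and 1.20 TPM in 2D and at 12.7 and 10.0 TPM in 3D, and Cps1 did not exceed 0.261 TPM in any library. The 5 biliary markers moved in both directions. The keratins were abundant and lower in 3D, Krt19 at 1728 and 1647 against 1174 and 1226 TPM and Krt7 at 492 and 492 against 307 and 320 TPM. Spp1 was higher in 3D, at 166 and 138 against 764 and 786 TPM. Sox9 was higher too, at 15.2 and 16.5 against 24.2 and 25.4 TPM. Epcam did not exceed 0.0298 TPM in any library.

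Starting sequences are shown for 3 genes, because they are the member with the lowest fold change (Prss27), the one with the highest (Tmprss2) and the most abundant one (Spint2). They are RefSeq sequences of GRCm38.p6, each running 5′ to 3′ in the direction of the gene and stopping before the gene, at the RefSeq start for Tmprss2 and Spint2 and at the start in the deposited table for Prss27, with CG dinucleotides, the sites of DNA methylation in mammals, in capitals. Prss27 is at chr17:24037993-24038143 on the plus strand, Tmprss2 at chr16:97611196-97611445 on the minus strand and Spint2 at chr7:29281978-29282227 on the minus strand.
Prss27: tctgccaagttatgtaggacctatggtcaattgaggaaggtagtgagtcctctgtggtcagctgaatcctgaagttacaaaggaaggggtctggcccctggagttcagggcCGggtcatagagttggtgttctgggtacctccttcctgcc
Tmprss2: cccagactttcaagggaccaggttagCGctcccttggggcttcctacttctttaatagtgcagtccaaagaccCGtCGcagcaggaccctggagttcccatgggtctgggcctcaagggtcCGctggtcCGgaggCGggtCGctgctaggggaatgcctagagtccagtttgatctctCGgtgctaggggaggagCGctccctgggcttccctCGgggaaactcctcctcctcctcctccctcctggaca
Spint2: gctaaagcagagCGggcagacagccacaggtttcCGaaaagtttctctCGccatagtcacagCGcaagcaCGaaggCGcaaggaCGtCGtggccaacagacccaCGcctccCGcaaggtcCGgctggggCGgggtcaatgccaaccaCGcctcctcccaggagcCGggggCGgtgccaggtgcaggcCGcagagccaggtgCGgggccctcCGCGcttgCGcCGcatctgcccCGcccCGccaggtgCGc
The 3 starts differ in CG content. In the 250 bases before the RefSeq start, Prss27 has 3 CG dinucleotides (1 of them in the stretch shown), Tmprss2 has 10 and Spint2 has 24, against a median of 6 over 32851 starts of the mouse genome. Of those starts, 29.0% have fewer than Prss27, 62.2% fewer than Tmprss2 and 88.0% fewer than Spint2. Spint1, with 26, resembles Spint2 in this respect. Hpn (2 starts) had 1 and 7 and Prss23 (7 starts) between 2 and 34. No start was matched for Prss8, Prss22, St14 and Tmprss6.

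Letters recognised by the families of some epithelial and hepatocyte factors were searched on both strands of the same 250 bases for the 6 matched members. Grainyhead-type (AACCNGTT), KLF4-type (GGGNGTGG), ETS-type (AGGAAGT), HNF4A-type (AAAGTCCA) and TATA-type (TATAAA) letters were found in 0 of the 6, against 1.79%, 15.9%, 7.69%, 1.01% and 12.4% of all starts. AP-1-type letters (TGANTCA) were found for 1 member, Prss23, against 6.75% of all starts. These counts describe the windows and the exact letters only, and close variants of the letters were not counted. A member counts once although the 6 members have 13 starts, so its share and that of all starts differ in unit.

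Prss27 had the lowest fold change of the set and Tmprss2 the highest. Spint2 was the most abundant member in every library, and St14, Prss8 and Hpn were below 1 TPM in every library. Of the 10 genes, 7 reached a mean of 1 TPM over the 4 libraries and entered the fit across genes, which was run with limma on log2(TPM + 1). Tmprss6 and Spint1 did so only through their 3D level. All 7 were free of overlap between the cultures, 5 higher and 2 lower in 3D, where 77.5% of the 14116 tested genes had no overlap, 35.9% higher and 41.6% lower. Because the set was picked on this contrast, nothing is read from this count and no p-value is given for a member. Of all tested genes 50.5% reached an adjusted p-value under 0.05, 23.4% higher and 27.1% lower, and the counts of calls in other genes below stand against these shares. Log2 fold changes below are 3D over 2D on the log2(TPM + 1) scale, which understates changes at low TPM. In bulk RNA a lower level can mean fewer expressing cells or less RNA per cell, which cannot be told apart.

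**Figure D1:**
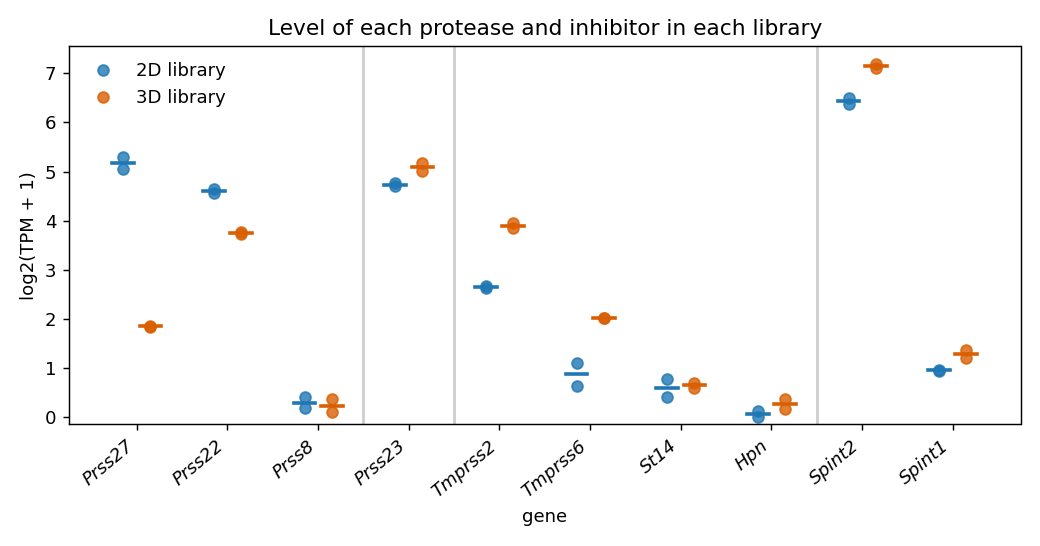
Level of each of the 10 genes in each library, as log2(TPM + 1), with 2D libraries in blue, 3D libraries in orange and short bars at the mean of the 2 plotted values. Prss27 drops from just over 5 to just under 2, Tmprss2 and Tmprss6 are higher in 3D, and Prss8, St14 and Hpn lie below 1 in both cultures. Grey lines part the genes by role.

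Prss27 encodes marapsin, a trypsin-like protease known from squamous epithelia. It lies on chromosome 17 from 24038144 to 24045954 (GRCm38, plus strand), in a single annotated transcript of 6 exons. Its level was 32.3 and 38.3 TPM in the 2D libraries and 2.59 and 2.63 TPM in the 3D libraries. Both 2D values lay far above both 3D values, and the 3D libraries were nearly equal. The mean was 13.5-fold lower in 3D (35.3 ± 4.26 against 2.61 ± 0.0295 TPM, SD, n = 2 each), and the log2 fold change was -3.33 (SE 0.11). Only 0.0283% of the tested genes had a lower fold change. With a pseudocount of 0.1 the value was -3.70 and with 5 it was -2.40.

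Prss22, a secreted tryptase-like enzyme of airway epithelium that can activate pro-urokinase, is the nearest gene before Prss27 with a mean of at least 1 TPM, at a distance of 40.0 kb and on the opposite strand (chromosome 17, 23993535 to 23998100). It stood at 22.6 and 24.0 TPM in 2D and at 12.2 and 12.7 TPM in 3D. The cultures did not overlap, and the mean was 1.88-fold lower in 3D (log2 fold change -0.86, SE 0.07). The balance between these neighbours turned round, with 1.43 and 1.59 times as much Prss27 as Prss22 RNA in the 2D libraries and 0.212 and 0.208 times as much in the 3D libraries.

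Genes around the pair were not all lower. Within 200 kb on either side, 13 genes were tested. Of the 11 besides Prss22 and Prss27, 6 were higher, 2 lower and 3 not called at a limma adjusted p-value under 0.05, against 23.4% higher and 27.1% lower over all tested genes. The 11 include Mir5125 and Mir5134, microRNA entries inside Srrm2 and Ccnf on the same strand, whose values may not be separate from those genes. Mir5125 and Srrm2 are both among the 6 higher. Kctd5, an adaptor of a ubiquitin ligase whose gene lies 1.78 kb beyond Prss27, fell from 78.7 ± 1.15 to 63.4 ± 1.61 TPM (SD, n = 2 each, log2 fold change -0.31, limma adjusted p 0.00673). Elob, which encodes elongin B and is the nearest expressed gene before Prss22 at 164 kb, fell from 716 ± 35.0 to 565 ± 5.08 TPM (SD, n = 2 each, log2 fold change -0.34, limma adjusted p 0.00446). The 3 other protease genes of that interval, Prss41, Prss32 and Prss30, ranged from 0 to 0.930 TPM.

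**Figure D2:**
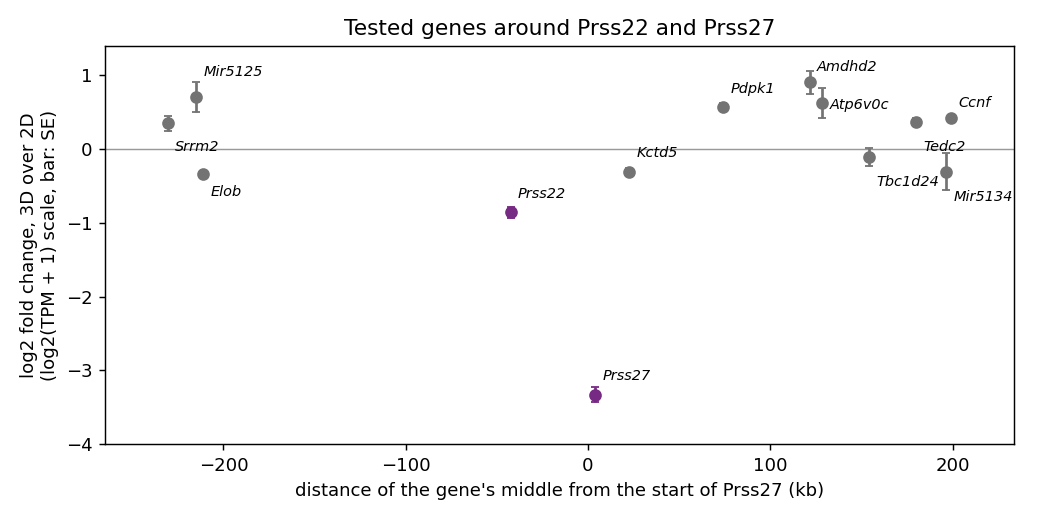
Log2 fold change (3D over 2D, log2(TPM + 1) scale, bars are SE) of the 13 tested genes around Prss22 and Prss27, against the distance of each gene's middle from the start of Prss27 in kb. Prss27 lies at -3.33 and Prss22 at -0.86, while Kctd5 at -0.31 and Elob at -0.34 are closer to 0. Past the threshold 6 genes lie above 0, among them Mir5125, which lies inside Srrm2.

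Prss23 encodes a secreted protease of little known function. It was measured at 25.0 and 26.3 TPM in 2D and at 35.1 and 31.4 TPM in 3D, on chromosome 7 from 89507783 to 89527187. The cultures did not overlap, but the 3D libraries differed by 1.12-fold from each other, against 1.3-fold between the culture means (log2 fold change 0.36, SE 0.08). An antisense gene inside it, Prss23os, was at most 0.160 TPM.

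Prss8 encodes prostasin, which acts together with matriptase at epithelial surfaces and promotes opening of the epithelial sodium channel. Its level was 0.133 and 0.320 TPM in 2D and 0.295 and 0.0671 TPM in 3D, and the cultures overlapped. It lies between 2 expressed proteases of its family on chromosome 7 (127925716 to 127930104). Prss36, 2.53 kb away, was at 8.20 to 10.6 TPM and Prss53 at 46.0 to 50.9 TPM, and neither was called (limma adjusted p 0.140 and 0.101). The 3′ end of Prss8 overlaps that of Kat8, a histone acetyltransferase gene on the opposite strand, and Kat8 was at 39.7 to 44.0 TPM.

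Tmprss2, a protease of epithelial surfaces that responds to androgen in the prostate, was the most abundant of the 4 type II members in every library. It was at 5.19 and 5.39 TPM in 2D and at 13.4 and 14.4 TPM in 3D. The libraries of each culture lay close together, and the mean was 2.63-fold higher in 3D (log2 fold change 1.25, SE 0.08). It made up 73.6% and 84.8% of the summed TPM of the 4 type II genes in 2D and 77.7% and 79.3% in 3D. Its gene (chromosome 16, 97564682 to 97611195, 14 exons in the longest coding transcript) is next to Mx2, an interferon-induced gene annotated as a polymorphic pseudogene 3.78 kb away. Mx2 rose from 3.31 ± 0.299 to 6.70 ± 0.116 TPM (SD, n = 2 each, log2 fold change 0.84, limma adjusted p 0.00347). Ripk4, a kinase gene on the other side at 131 kb, had 107 to 113 TPM in all libraries (limma adjusted p 0.345).

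Tmprss6 encodes matriptase-2, which restrains the iron hormone hepcidin in hepatocytes by cutting hemojuvelin. Its gene lies on chromosome 15 from 78439667 to 78468634 (18 exons in the longest coding transcript). Its level was 1.15 and 0.547 TPM in 2D and 3.04 and 3.02 TPM in 3D. The 3D libraries were nearly equal and above both 2D libraries, which differed by 2.11-fold. The log2 fold change was 1.14 (SE 0.19) and depended on the pseudocount, at 1.8 with 0.1 and 0.46 with 5. Its neighbours Mpst and Il2rb (chromosome 15) also rose, Mpst by 0.32 (limma adjusted p 0.00956) and Il2rb by 0.42 (limma adjusted p 0.0177), both as log2 fold changes. The genes of the hepcidin pathway were low. Hfe2, which encodes hemojuvelin, was at 0.0295 to 0.0311 TPM, and Hamp, which encodes hepcidin, was at 0.157 to 0.485 TPM.

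St14 and Hpn, the best known activators of the system, were among the lowest members in both cultures. St14 (chromosome 9, 31089402 to 31131853, 19 exons in the longest coding transcript) encodes matriptase and was at 0.703 and 0.327 TPM in 2D and at 0.512 and 0.624 TPM in 3D, with overlapping cultures. A processed pseudogene inside St14 on the opposite strand, Gm16071, was listed at 0.721 and 0.774 TPM in 2D and at 2.60 and 3.27 TPM in 3D, more than St14 itself in every library. Reads were aligned with strand information. Hpn encodes hepsin, an abundant protease of normal hepatocytes. It was listed at 0 and 0.0914 TPM in 2D and at 0.293 and 0.119 TPM in 3D, higher in 3D without overlap but too low to be tested. A value of 0 in this table can be a failed estimate, since the mitochondrial gene mt-Atp6 is listed as low as 0.0004 TPM. Hpn is on chromosome 7 from 31098725 to 31115290, and its neighbour Gramd1a, 14.8 kb away, rose from 8.54 ± 0.364 to 12.7 ± 0.996 TPM (SD, n = 2 each, limma adjusted p 0.0101).

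Spint2, the inhibitor known as HAI-2, was the most abundant member, from a gene on chromosome 7 (29256323 to 29281912). It was at 82.1 and 89.2 TPM in 2D and at 137 and 146 TPM in 3D. The cultures did not overlap, and the mean was 1.65-fold higher in 3D (85.7 ± 5.01 against 142 ± 6.17 TPM, SD, n = 2 each, log2 fold change 0.72, SE 0.06). Both of its expressed neighbours on chromosome 7 moved the other way. These were 2200002D01Rik at 7.86 kb, which fell by 0.59 on the log2 scale, and Dpf1, a chromatin factor gene at 22.0 kb, which fell by 0.87 (limma adjusted p 0.00109 and 0.0140).

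Spint1, the related inhibitor HAI-1 on chromosome 2 (119237362 to 119249527), was far lower. It had 0.906 and 0.952 TPM in 2D and 1.32 and 1.58 TPM in 3D, with no overlap and a log2 fold change of 0.34 (SE 0.14). The pseudocount moved this value from 0.12 with 5 to 0.58 with 0.1. Spint2 RNA exceeded Spint1 RNA by 90.7 and 93.8 times in the 2D libraries and by 104 and 92.6 times in the 3D libraries, so this ratio overlapped between the cultures. Its neighbours, Ppp1r14d and the vesicle trafficking gene Vps18, rose as well, with limma adjusted p-values of 0.0201 and 0.00891 and log2 fold changes of 1.41 and 0.29. Ppp1r14d was listed at 0 TPM in one 2D library and entered the test only through its 3D level.

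The order of levels differed between the cultures. In 2D it ran from Spint2 through Prss27, Prss23, Prss22 and Tmprss2 to Spint1, Tmprss6, St14, Prss8 and Hpn. Spint1 and Tmprss6 overlapped there, as did Tmprss6 and St14, and all other neighbours in this order were apart in both libraries. In 3D Prss27 was in sixth place, behind Spint2, Prss23, Tmprss2, Prss22 and Tmprss6, and only Hpn and Prss8 overlapped among neighbours in the order.

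Summed over the 8 proteases, the level was 87.1 and 95.3 TPM in 2D and 67.4 and 64.9 TPM in 3D. Without Prss27 the order was the other way, at 54.8 and 57.0 TPM in 2D and 64.8 and 62.3 TPM in 3D. Prss27 made up 37.1% and 40.2% of the protease sum in 2D and 3.83% and 4.05% in 3D, while Prss23 went from 28.7% and 27.6% to 52.0% and 48.3% and Tmprss2 from 5.96% and 5.66% to 19.9% and 22.2%. The 2 inhibitors together had 0.954 and 0.947 times the TPM of the 8 proteases in the 2D libraries and 2.06 and 2.27 times in the 3D libraries. This ratio was 2.28-fold higher in 3D by its means, and the fall of Prss27 is part of that difference. The inhibitors summed to 83.05 and 90.18 TPM in 2D and to 139 and 148 TPM in 3D. Set against the sums without Prss27 given above, they were still relatively higher in 3D, but by less. The ratio compares RNA levels only, and the inhibitors are not known to act on every protease counted.

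**Figure D3:**
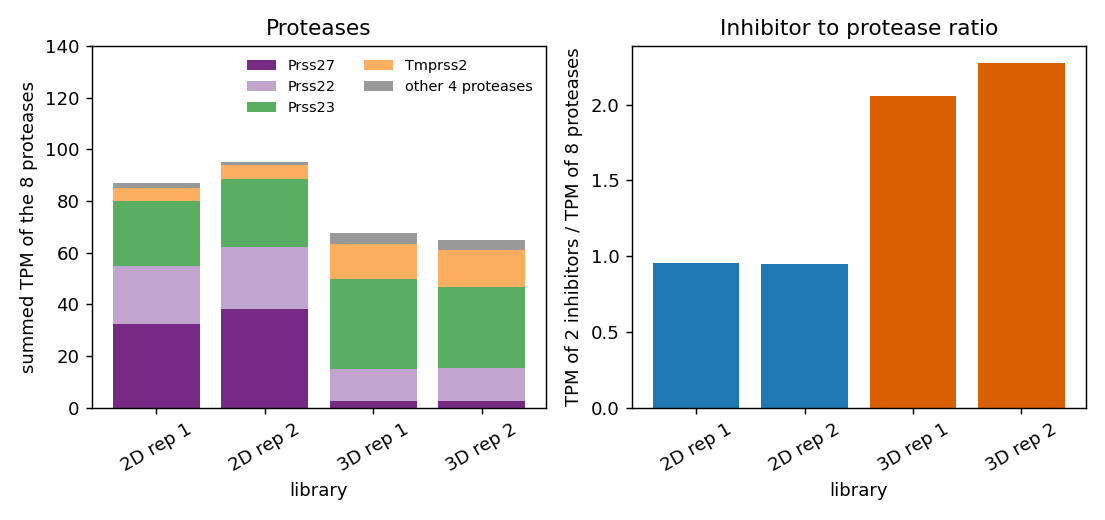
Left, summed TPM of the 8 proteases in each library, stacked by gene; right, TPM of the 2 inhibitors divided by that of the 8 proteases in each library. Prss27 shrinks from 37.1% and 40.2% of the stack to 3.83% and 4.05%, and the ratio goes from 0.954 and 0.947 to 2.06 and 2.27.

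By distance between centred profiles of log2(TPM + 1) over the 4 libraries, the 3 named genes most like Prss27 were Sdcbp2 (distance 0.170), which encodes a syntenin, Tcrg-C4 (0.234), a T cell receptor constant gene, and Xirp1 (0.299), an actin-binding protein gene of striated muscle. Sdcbp2 was at 67.2 and 68.1 TPM in 2D and at 5.44 and 5.91 TPM in 3D, and Xirp1 at 14.3 and 17.8 TPM in 2D and at 1.08 and 1.06 TPM in 3D. With 2 cultures the likeness mostly reflects the size of the culture difference.

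Other genes of the protease family were compared next. Of 48 further genes with a Prss or Tmprss symbol or of the tryptase and corin type, 37 stayed below 1 TPM in every library and 9 were tested. The 48 and the 37 include Prss23os, an antisense gene taken in by its symbol and not a protease gene. At a limma adjusted p-value under 0.05, 2 were higher and 5 lower in 3D, which is 77.8% called against 50.5% of all tested genes, with a median log2 fold change of -0.99 against -0.04. Those lower with a change over 1 were Tmprss11b (6.64 and 7.57 TPM in 2D, 1.26 and 1.34 TPM in 3D, log2 fold change -1.81, limma adjusted p 0.000680), Tmprss12, Tmprss11f and Tmprss11d. Tmprss12, a testis-type enzyme, fell by 1.63 (limma adjusted p 0.000718). Tmprss11f fell from 6.59 ± 0.273 to 1.48 ± 0.0143 TPM and Tmprss11d from 2.08 ± 0.345 to 0.104 ± 0.0822 TPM (SD, n = 2 each, limma adjusted p 0.000680 and 0.00253). Tmprss11d reached the filter only through its 2D level, so its call rests in part on the filter. Prss2, a pancreatic trypsin gene with many near-identical copies, so that its value is uncertain, fell by 0.99 (limma adjusted p 0.00163). The 2 that were higher, chosen after their values were seen, were Prss35 (log2 fold change 0.77, limma adjusted p 0.00500) and Prss56 (0.68 and 0.0190), whose call ended without 2D replicate 1, 2D replicate 2 or 3D replicate 2. Only 3 of the 9 had a mean of at least 5 TPM, and with that filter 1 was called.

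The Tmprss11 genes encode type II proteases of airway and squamous epithelia, and 7 are listed within 514 kb of chromosome 5 (86231481 to 86745815). Their summed level was 15.8 and 16.9 TPM in 2D and 3.30 and 3.49 TPM in 3D. Of the 7, 3 were tested and all 3 were lower in 3D, Tmprss11d having entered through 2D alone, and 1 more, Tmprss11e, was lower with no overlap at 0.280 and 0.285 against 0.0355 and 0.112 TPM. The remaining 3 were at most 0.222 TPM. These genes resemble each other, and how their shared reads were split is not known.

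**Figure D4:**
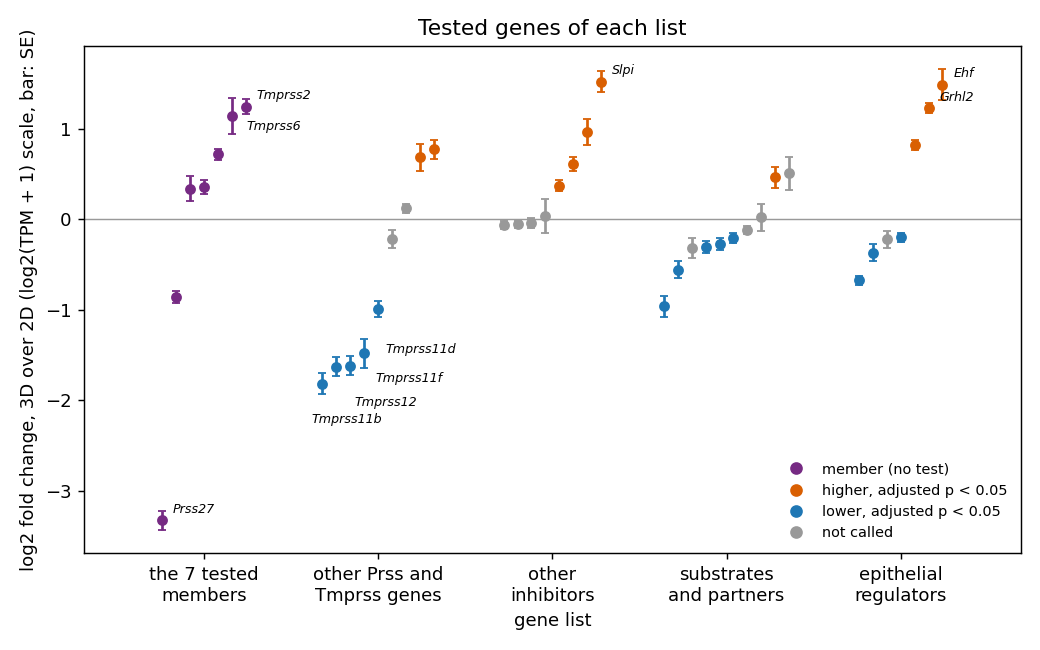
Log2 fold change (3D over 2D, log2(TPM + 1) scale, bars are SE) of every tested gene in the set and in the 4 related lists, orange for higher, blue for lower and grey for not called at a limma adjusted p-value under 0.05, and purple for the 7 tested members, which carry no test. Prss27 at -3.33 lies below every other gene plotted, and 4 Tmprss genes, from -1.48 to -1.81, form the lowest group of the related lists.

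Of 14 other inhibitors of trypsin-like proteases, 8 were tested, 4 were higher and 0 lower (median log2 fold change 0.20). The share called, 50.0%, is about that of all tested genes, 50.5%. Slpi, an inhibitor secreted by mucosal epithelia, rose from 7.04 and 5.65 TPM in 2D to 20.2 and 19.8 TPM in 3D (log2 fold change 1.52, SE 0.11, limma adjusted p 0.00100). Wfdc2, a secreted protein with related domains, rose from 302 ± 16.4 to 390 ± 22.0 TPM (SD, n = 2 each, limma adjusted p 0.00860). Serpinb6a, Serpine2 and App, whose Kunitz domain is present in some of its isoforms, were abundant at 302 to 323, 222 to 240 and 162 to 177 TPM and were not called (limma adjusted p 0.283, 0.262 and 0.586). Aplp2, an App relative whose gene lies 17.7 kb from St14, rose from 120 ± 0.210 to 184 ± 19.3 TPM (SD, n = 2 each, limma adjusted p 0.00416). Serpinf2, the plasmin inhibitor named here after its value was seen, rose from 1.90 ± 0.0474 to 4.70 ± 0.841 TPM (SD, n = 2 each, limma adjusted p 0.00589). Zbtb44, on the other side of St14, was not called (limma adjusted p 0.194).

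Known substrates and partners of these proteases formed the next list. Of 21 listed genes, 10 were tested, with 1 higher, 5 lower and 4 not called, and a median log2 fold change of -0.24. The share called was 60.0%, against 50.5% of all tested genes. Met, the receptor of hepatocyte growth factor, fell by 0.20, and Hgfac, the activator of that growth factor, fell by 0.27 (limma adjusted p 0.0272 and 0.0224). Both calls ended with no filter on low values and without either 3D library, and that of Met also with the replicate block, a constant variance prior and without 2D replicate 2. Mst1, a ligand activated by proteases of this type, and Plaur, the urokinase receptor, were at 117 to 130 and 60.0 to 86.3 TPM and were not called (limma adjusted p 0.0726 and 0.0736), but Plaur was called with the replicate block and without 2D replicate 1. With no filter on low values 3 of the list were called, without 3D replicate 1 there were 2 and without 3D replicate 2 there was 1.

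Among genes outside the naming rule, chosen after their values were seen, F2rl1, the protease-activated receptor PAR2, fell from 13.5 ± 1.10 to 8.88 ± 0.540 TPM, and Cdcp1, a surface protein cut by these proteases, from 3.85 ± 0.0946 to 1.49 ± 0.204 TPM (SD, n = 2 each, limma adjusted p 0.00926 and 0.00375). The call of F2rl1 ended without 3D replicate 2. Plau, the urokinase that Prss22 can activate, fell from 19.8 ± 0.728 to 15.8 ± 0.141 TPM (SD, n = 2 each, limma adjusted p 0.0194), a call that ended without 2D replicate 1 or either 3D library. Scnn1a, the alpha subunit of the epithelial sodium channel, was the one gene of the list called higher, at 9.43 ± 1.44 against 13.3 ± 0.286 TPM (SD, n = 2 each, limma adjusted p 0.0295). That call ended with no filter on low values and without 2D replicate 1 or either 3D library, and Tfr2, a transferrin receptor gene, was called as well with quantile normalization and without 2D replicate 2. Epcam, which matriptase cuts in intestine, was listed at 0 in 3 libraries and at 0.0298 TPM in the remaining one. The growth factor gene Hgf did not exceed 0.0545 TPM.

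Epithelial regulators of transcription and splicing moved in both directions. Of 12 listed genes, 7 were tested, with 3 higher, 3 lower and 1 not called (median log2 fold change -0.20, 85.7% called against 50.5% of all tested genes). Grhl2, a grainyhead factor of epithelial surfaces, rose from 15.6 ± 0.162 to 37.8 ± 0.367 TPM (SD, n = 2 each, log2 fold change 1.23, limma adjusted p 0.000413). Ehf, an epithelial ETS factor, rose from 0.603 ± 0.297 to 3.46 ± 0.103 TPM, and Klf4 rose by 0.82 (limma adjusted p 0.00301 and 0.000908). Ehf entered the test only through its 3D level. Elf3, another epithelial ETS factor, fell from 56.0 ± 0.918 to 34.7 ± 0.217 TPM (SD, n = 2 each, log2 fold change -0.67, limma adjusted p 0.000935). Klf5 fell by 0.20 (limma adjusted p 0.0320), a call that ended with the replicate block, a constant variance prior or no filter on low values and without 2D replicate 2, 3D replicate 1 or 3D replicate 2. Grhl1, a relative of Grhl2 named after its value was seen, fell from 9.56 ± 0.494 to 7.18 ± 0.499 TPM (SD, n = 2 each, limma adjusted p 0.0291), a call that ended with no filter on low values and without any 1 of the 4 libraries.

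The expressed genes on either side of the members were counted together. Of 18 distinct neighbours that are not members, 8 were higher, 4 lower and 6 not called at a limma adjusted p-value under 0.05, against 23.4% higher and 27.1% lower over all tested genes. The calls of Gramd1a, Mpst, Il2rb, Ppp1r14d, Vps18 and Dpf1 each ended without at least 1 of the 4 libraries, and Fxyd5 was called without 3D replicate 1. Those not mentioned above were Bckdk beside Prss8, Fxyd5 beside Hpn, and Fzd4 and Gm2546 beside Prss23. Fzd4, a Wnt receptor gene 94.7 kb from Prss23, rose by 0.80 (limma adjusted p 0.00493) and the others were not called.

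Marker genes of other cells were compared because Prss22 and Prss27 are relatives of the tryptases of mast cells. The 4 mast cell markers summed to 0 and 0.180 TPM in 2D and to 0.121 and 0.246 TPM in 3D, with 0 of the 4 reaching 1 TPM. Of 3 endothelial markers 0 reached 1 TPM. Of 4 leukocyte markers 2 did, Cd68 at 18.3 to 25.5 TPM and Cd3e, which fell from 1.86 to 0.493 TPM by its means, while Ptprc, the common leukocyte antigen, did not exceed 0.296 TPM. Of the 4 fibroblast and stellate markers found 1 did, Des, at 33.7 and 36.1 TPM in 2D and at 18.8 and 17.3 TPM in 3D. Markers of the epithelial state moved with the cultures. The 3 general epithelial markers summed to 9544 and 9343 TPM in 2D and to 5144 and 5235 TPM in 3D, with 1 higher (Cdh1) and 2 lower (Krt8 and Krt18). The 5 biliary markers summed to 2401 and 2294 TPM in 2D and to 2269 and 2357 TPM in 3D. These near sums hold opposite shifts, with 2 markers higher (Spp1 and Sox9) and 2 lower (Krt19 and Krt7). Spp1 rose from 152 ± 19.8 to 775 ± 15.1 TPM, and Krt19 fell from 1687 ± 57.0 to 1200 ± 37.0 TPM (SD, n = 2 each). The 6 hepatocyte markers summed to 86.5 and 84.8 TPM in 2D and to 503 and 489 TPM in 3D, with 5 higher. The part of these shifts in the differences of the proteases was not tested.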

How the data were processed

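RNA-seq libraries were prepared from 2D- and 3D-cultured AML12 cells with a stranded mRNA kit, 2 per culture. According to the study's methods and the submitters' processing notes, the authors' tools were cutadapt 1.8.3 and Trimmomatic 0.36 for trimming, HISAT2 2.0.5 for alignment to the GRCm38 genome and StringTie 1.3.4 for gene levels. The TPM values were deposited by the authors per library. Their table also holds the fold change and p-value of a DESeq2 comparison, which were not used.

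The members and gene lists were chosen with earlier results of these data known. Genes with a mean of at least 1 TPM were compared by limma 3.58.1 (R 4.3.3) after a log2 transform with a pseudocount of 1 TPM (trend and robust variance, culture as factor, Benjamini-Hochberg adjustment over 14116 genes). The smallest exact permutation p of 2 against 2 is 0.333, so no such test was run. Data were simulated for this comparison with independent noise (14116 genes, 200 changed by 2-fold or 4-fold on the log2(TPM + 1) scale). The variance of each gene's noise was the average of its replicate variance and the square of the median SD. That lowers the noise of the most variable genes and raises that of the least variable. Of the 4-fold changes 99% and of the 2-fold changes 91% were recovered, and 4.52% of 199 calls were false. In the data the spread is not averaged in this way and 50.5% of tested genes were called, so these rates need not hold there. TPM keeps no depth, so no counting interval was computed.

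Named genes were all members, the 4 most abundant tested genes of each list with any whose log2 fold change was at least 1 in size and past the adjusted threshold of 0.05, up to 2 markers per cell type, the 3 genes most like Prss27 and the nearest expressed gene on either side of each member. Further markers were named after their values were seen. Alternatives covered the pseudocount, filter, scaling, block, variance prior, threshold and each library left out. Of the listed genes, 31793 were found by identifier in GENCODE M21, which has another position for Prss22. Promoters came from RefSeq. Figures were drawn with matplotlib 3.10.9.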

Additional observations from a re-analysis of the deposited data

How the results depend on the processing

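The direction of the 7 tested members held under every alternative in which each had a value, with 5 members left under a filter of 5 TPM. Since the cultures do not overlap for these members, leaving out a library could not reverse it. Overlap was read from the deposited TPM under every alternative, so it could not arise there, and it was not checked after rescaling. Of 82 alternative values of the members' fold changes 73 moved by no more than the replicate spread, and the other 9 came from the pseudocounts of 0.1 and 5. The ranges were -3.70 to -2.40 for Prss27, 0.88 to 1.38 for Tmprss2 and 0.46 to 1.8 for Tmprss6. Leaving out a library cannot move a value past that spread, and the filter and the block do not change it. Only the pseudocount and the scaling could have exceeded the spread, so the 73 do not measure stability. The ratio of inhibitors to proteases was 2.16-fold to 2.39-fold higher in 3D with each library left out.

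The count of called genes was 4720 to 5954 with each library left out, lowest without 3D replicate 1, and 4223 at an adjusted p-value under 0.01, against 7122. A library left alone in its culture is assumed to vary like the other culture. Same-numbered libraries did not deviate together (correlation -0.0549 over 14116 genes), so no pairing by number was seen. This cannot show that same-numbered libraries were prepared apart. With the replicate block 6248 genes were called, 6061 of them shared. Of other Prss and Tmprss genes 1 was called with a filter of 5 TPM. Of the substrates and partners 3 were called with no filter, 2 at an adjusted p-value under 0.01, and 1 to 6 with each library left out (2 without 3D replicate 1 and 1 without 3D replicate 2). The cause of these differences was not tested.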
